A study of Homo sapiens with 4 samples.

Results

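Histone cluster genes are the genes whose symbols begin with HIST1H, HIST2H, HIST3H or HIST4H. The deposited table lists 60 of them among 20510 genes: 5 for the linker histone H1, 16 for H2A, 15 for H2B, 12 for H3 and 12 for H4. They were chosen by symbol alone. RNA came from K1, an established human cell line from papillary thyroid carcinoma, grown in RPMI 1640 medium with serum. In 2 libraries (shCtrl) the cells carried a control hairpin, and in the other two (shTBX3) a short hairpin that targets the T-box repressor TBX3, with no further allele or agent named. The labels give no hairpin sequence, number of clones or time after introduction, and do not say whether replicates were separate cultures. P-values therefore reflect only how far these libraries scatter, and that scatter could be technical.

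Histone cluster genes supply the bulk of new histone protein when DNA is replicated in S phase. H2A, H2B, H3 and H4 form the nucleosome core and H1 binds the linker DNA between nucleosomes. Their mRNAs are unusual, because most end in a conserved stem-loop bound by the protein SLBP and carry no poly(A) tail. A subset of the genes also makes polyadenylated mRNA. Histone variants encoded elsewhere, such as H2A.Z (H2AFZ) and H3.3 (H3F3A, H3F3B), are made throughout the cell cycle as polyadenylated mRNA. The labels call the material total RNA and do not say whether poly(A) RNA was selected, a step that would set how much of each kind of histone mRNA was read.

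The stem-loop is the feature these genes share in their sequence, and it was read from the GRCh37 genome within 100 bases after the stop codon. It was defined by shape: a stem of 6 bases starting with GG, a loop of 4 bases and the matching 6 bases. Of 56 histone cluster genes with an annotated position and stop codon, 54 held such a stem-loop, against 0.320% of 19387 other coding genes, a count of 62 that includes histone genes not in the table. It began between 22 and 67 bases after the stop codon, with a median of 35.5. HIST1H2AG and HIST1H2AK held no match of this shape, which says only that these letters are not in the window. The 8 stem-loops shown belong to the most abundant gene (HIST1H2BK), to genes whose groups did not overlap (HIST1H1C, HIST1H1E, HIST1H2BJ, HIST3H2A, HIST2H3C, HIST4H4), and to the H4 gene with the highest level (HIST1H4C). Capitals mark the paired stem, and lower case the loop and 5 flanking bases on each side, 5′ to 3′ on the strand of the gene.

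HIST1H2BK: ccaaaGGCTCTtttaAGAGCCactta
HIST1H2BJ: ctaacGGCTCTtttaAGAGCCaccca
HIST1H1C: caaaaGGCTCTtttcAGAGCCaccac
HIST1H1E: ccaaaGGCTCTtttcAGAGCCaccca
HIST3H2A: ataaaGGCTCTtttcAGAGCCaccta
HIST2H3C: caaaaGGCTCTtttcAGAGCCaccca
HIST1H4C: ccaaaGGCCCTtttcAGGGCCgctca
HIST4H4: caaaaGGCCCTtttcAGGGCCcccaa

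There were 7 forms of the 16-base stem-loop among the 54 genes. The commonest, that of HIST1H1C, was found in 34 genes of H1, H2A, H2B and H3. The stem split by histone type: the 11 H4 genes with a stem-loop had GGCCCT, and all 43 others (5 H1, 13 H2A, 13 H2B and 12 H3) had GGCTCT. Counted from 1 at the first base of the stem, the H4 form differed from the commonest by T4C and A13G, a pair of changes that keeps the stem paired. HIST1H2BK and HIST1H2BJ share C10A in the loop with 5 other genes. On GRCh37 the stem-loops lie at chr6:27114145-27114160 (HIST1H2BK), chr6:27100100-27100115 (HIST1H2BJ), chr6:26055972-26055987 (HIST1H1C), chr6:26157323-26157338 (HIST1H1E), chr1:228645070-228645085 (HIST3H2A), chr1:149812264-149812279 (HIST2H3C), chr6:26104545-26104560 (HIST1H4C) and chr12:14923658-14923673 (HIST4H4). HIST1H1E and HIST1H4C are on the plus strand and the others on the minus strand. All are 3′ untranslated sequence, since they follow the stop codon. Of the 54 genes, 38 had annotated transcripts that end within 11 bases of the stem-loop, and 16 had an annotated transcript that runs at least 200 bases past it. The levels of these sets overlapped widely: mean FPKM over the 4 libraries had a median of 0.837 (range 0.04 to 26.3) in the 38 and 1.12 (0.162 to 3.0) in the 16. HIST1H2BK, the highest of the 38, was placed there by its GENCODE transcript. The deposited levels list 2 RefSeq transcripts for it, and in RefSeq the gene spans 8566 bases. Its set may therefore differ from the annotation behind its FPKM.

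Promoters held further shared letters, in the RefSeq windows from 250 bases before to 50 bases after the start (GRCh38.p14), which were found for 54 of 60 genes. All motifs were searched on both strands, and a TATAAA can overlap its own reverse complement or, by its last letters, an AAACACA. The octamer ATTTGCAT, a site of the POU factor OCT1 (POU2F1), stood in 10 of 14 H2B and 10 of 15 H2A promoters, in 1 of 10 H3 and in 0 of 5 H1 and 0 of 10 H4 promoters, against 2.19% of 27305 genes. These are not all separate sites, because windows of H2A and H2B genes that lie head to head overlap. The same octamer was counted for HIST1H2BJ and HIST1H2AG, for example. The H3 match, in HIST1H3D, lay in a window identical to that of HIST1H2AD. The sequence AAACACA, known as the H1 box, stood in 5 of 5 H1 promoters and in 6.94% of all genes. In HIST1H1A the match lay on the reverse strand, 183 bases before the start. Each of the other H1 genes had a match on its own strand, 117 or 119 bases before the start. CCAAT stood in 46 of the 54 promoters (39.7% of all genes), but in 2 of 10 H4 promoters, and TATAAA in 38 of 54 (14% of all genes). A match is a description of the letters and shows no binding. The 250 bases before the start of the most abundant H1 and H2B genes are shown because these genes had the highest levels and groups that did not overlap, with the 4 motifs in capitals.

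HIST1H1C (GRCh38.p14, minus strand, chr6:26056471-26056720): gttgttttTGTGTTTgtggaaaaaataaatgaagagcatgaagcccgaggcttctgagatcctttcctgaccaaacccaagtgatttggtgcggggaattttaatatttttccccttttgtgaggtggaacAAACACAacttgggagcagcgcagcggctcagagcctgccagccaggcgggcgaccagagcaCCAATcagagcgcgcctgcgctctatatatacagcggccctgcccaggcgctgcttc
HIST1H2BK (GRCh38.p14, minus strand, chr6:27146856-27147105): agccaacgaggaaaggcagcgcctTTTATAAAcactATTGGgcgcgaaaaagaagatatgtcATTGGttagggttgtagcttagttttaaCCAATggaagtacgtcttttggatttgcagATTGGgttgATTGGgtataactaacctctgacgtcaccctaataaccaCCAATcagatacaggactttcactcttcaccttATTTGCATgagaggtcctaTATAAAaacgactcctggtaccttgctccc

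In HIST1H1C the H1 box lay 119 bases and the CCAAT box 57 bases before the start, and in the paralogue HIST1H1E they lay at 117 and 54. In HIST1H2BK the octamer lay 49 bases and a TATA box 30 bases before the start shown (46 and 27 from its other RefSeq start), and in the neighbouring HIST1H2BJ at 47 and 28. Each pair therefore shares the order and near spacing of these letters.

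The libraries held about 8520000 to 8560000 fragments each, as estimated from the whole steps in the FPKM of microRNA genes. FPKM is a level per length, the fragments of a gene scaled to its transcript length and to the size of the library. For 52 histone cluster genes with a single short mRNA, 1 fragment was worth an FPKM of 0.15 to 0.33. The hairpin's target checks the labels: TBX3 had 48.94 and 54.77 in shCtrl against 27.81 and 36.99 in shTBX3, a log2 fold change of −0.67 ± 0.17 (SE) with a limma adjusted p of 0.428. Among thyroid markers, PAX8 and SLC5A5 reached 1.20 to 3.28, while TG, TSHR, NKX2-1 and FOXE1 did not exceed 0.31 in any library. The colon epithelial factor CDX2, by contrast, stood between 116.78 and 147.75 and made up most of the sum of 7 colon markers (195 to 248). Of these 7, CDX1 and GPA33 did not exceed 0.58 in any library, but CDX2 did not stand alone. The median marker had a mean FPKM of 10.3 among the 7 colon markers and 0.0650 among the 7 thyroid markers. How these levels bear on the origin of the line was not tested. LGALS4, a colon lectin, moved with the groups, at 4.33 and 5.59 in shCtrl against 1.31 and 1.39 in shTBX3 (log2 fold change −1.33 ± 0.18, limma adjusted p = 0.102), and its part in the histone values was not tested. The summed FPKM of 2 fibroblast markers in the table was 0.490 to 2.90. Among leukocyte markers LYZ stood at 14.56 to 16.51, PTPRC at 1.14 to 1.69 and CD14 at 0.29 or less. In bulk RNA a difference in the number of cells in S phase and a difference in RNA per cell cannot be told apart.

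Levels were low for most histone cluster genes and uneven among them. The mean FPKM over the 4 libraries was under 1 in 32 of the 60 genes, at least 5 in 6 of them and at least 10 in HIST1H2BK and HIST1H1C alone. These 2 genes lay above 84.7% and 80.8% of all genes in the table. HIST1H1C made up 65.8% of the summed H1 level and HIST1H2BK 53.8% of the summed H2B level, while the highest H2A, H3 and H4 genes made up 22.3% (HIST2H2AA3), 18.3% (HIST1H3B) and 18.7% (HIST1H4C) of theirs. Of the 60 genes, 18 were listed at 0 in at least 1 library and 4 (HIST1H1A, HIST1H2AE, HIST1H3E and HIST1H4A) were above 0 in 1 library each. HIST2H2AA3 and HIST2H2AA4, HIST2H3A and HIST2H3C, and HIST2H4A and HIST2H4B are duplicated genes with identical values within each pair, so the table cannot tell them apart. Other histone cluster genes differ little in coding sequence, and how fragments were divided among them rests on the authors' estimate.

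A gene was tested if 2 or more libraries had an FPKM of 1 or higher, which 33 of the 60 genes met (3 of H1, 9 of H2A, 9 of H2B, 6 of H3 and 6 of H4). HIST2H3A and HIST2H3C met it through the shTBX3 libraries alone and HIST4H4 through the shCtrl libraries alone, so these 3 had to differ and their differences carry no weight. The 27 genes not tested had no value above 1.44 in any library. The highest of each type by mean FPKM were HIST1H1D (0.870), HIST1H2AK (0.887), HIST1H2BM (0.857), HIST1H3I (0.730) and HIST2H4A (0.892). Of the 33, 14 rested on fewer than 10 fragments in every library and HIST1H1C and HIST1H1E on more than 50 in some library, among the 28 with a single mRNA length.

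**Figure D1:**
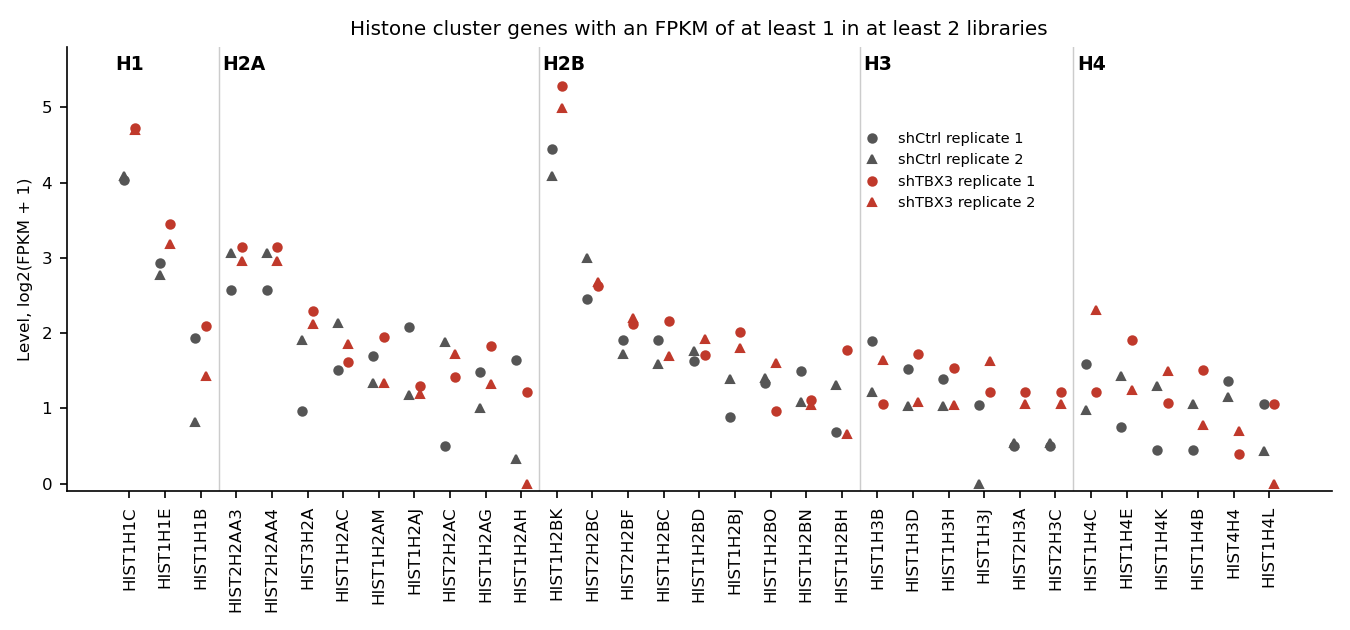
Level, as log2(FPKM + 1), of the 33 histone cluster genes tested, by histone type and falling mean level; circles and triangles are replicates 1 and 2, grey shCtrl and red shTBX3. HIST1H2BK and HIST1H1C stand far above the rest, with both red values above both grey values, while most low genes overlap.

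The comparison of shTBX3 with shCtrl asked how gene expression differs when TBX3 is lowered, in a study whose title concerns proliferation. The summed FPKM of all 60 genes was 111.39 and 108.41 with the control hairpin and 163.15 and 141.48 with the TBX3 hairpin. Both shTBX3 sums lay above both shCtrl sums, with means of 110 ± 2.11 and 152 ± 15.3 (SD, n = 2 each) and a ratio of 1.39. HIST1H2BK and HIST1H1C carried much of that difference. Without HIST1H2BK the ratio was 1.29, and without HIST1H2BK, HIST1H1C and HIST1H1E the sums were 68.5 and 70.6 in shCtrl against 89.9 and 77.8 in shTBX3, a ratio of 1.21. No test was attached to sums over genes.

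By histone type, the H1 sum was 25.86 and 22.79 in shCtrl against 39.83 and 36.03 in shTBX3 (ratio 1.56). The H2B sum was 40.25 and 37.45 against 64.12 and 53.88 (ratio 1.52), and without HIST1H2BK its ratio was 1.21. The groups did not overlap for H1, H2B or H4, the last at 9.48 and 10.42 against 12.81 and 11.52 (ratio 1.22). The H2A sums overlapped, at 25.06 and 31.22 against 34.58 and 29.54 (ratio 1.14), and so did the H3 sums, at 10.74 and 6.53 against 11.81 and 10.51 (ratio 1.29). H1 and H2B, the types in which 1 gene made up most of the sum, had the highest ratios. The H1 ratio was not that of HIST1H1C alone. The tested H1 genes had ratios of 1.60 (HIST1H1C), 1.44 (HIST1H1E) and 1.39 (HIST1H1B, with overlap). Differences between types were not tested.

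**Figure D2:**
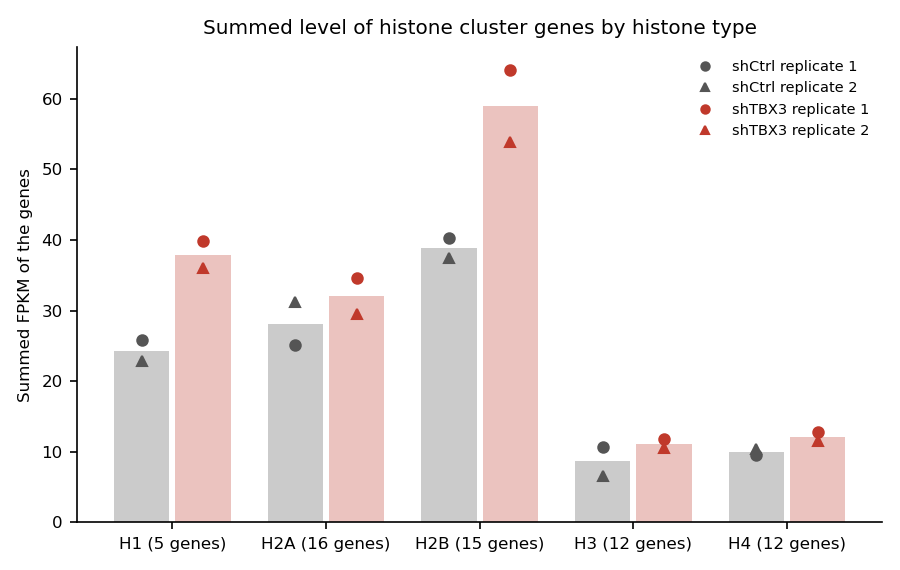
Summed FPKM of the histone cluster genes of each type; bars are means of 2 libraries, and circles and triangles are replicates 1 and 2 (grey shCtrl, red shTBX3). The H1 and H2B sums are 1.56 and 1.52 times as high in shTBX3, while the H2A and H3 sums of the groups overlap.

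Gene by gene, no histone cluster gene passed limma's threshold. Of the 33 tested, 0 had an adjusted p under 0.05, against 0.180% of the 13924 genes tested, and the smallest adjusted p was 0.222. At an unadjusted p under 0.05 there were 6 higher genes (18.2% of the 33, against 2.03% of all genes) and 1 lower gene (3.03%, against 4.65%). Both shTBX3 values lay above both shCtrl values in 9 genes (27.3%, against 14.8%) and below in 1 (3.03%, against 19.7%). A positive log2 fold change was seen in 24 of 33 (72.7%, against 46.9% of all genes), with a median of 0.23 beside −0.01 over all genes tested. These counts include the 3 genes that passed through 1 group alone. At an unadjusted limma p under 0.05, HIST2H3A and HIST2H3C are among the 6 higher genes, and HIST4H4 is the 1 lower gene. Without these 3 genes, 22 of 30 were positive and 7 had groups that did not overlap, all higher. HIST1H1C, HIST1H1E, HIST1H2BJ and HIST1H2BK were the genes of these 30 at an unadjusted limma p under 0.05. HIST2H2AA3 and HIST2H2AA4, with identical values, count separately in the 22. The share over all genes was not computed under the same exclusion.

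The filter can be set aside by fitting every gene in the table. Over all 60 histone cluster genes 41 were then positive (68.3%, against 48.2% of 20510 genes). Both shTBX3 values lay above both shCtrl values in 13 (21.7%, against 13.7%) and below in 3 (5.0%, against 17.0%). Limma again called 0. At an unadjusted limma p under 0.05 there were 12 of the 60 (10 higher, 2 lower), against 1249 of all 20510 genes in either direction. By type, 5 of 5 H1, 11 of 16 H2A, 10 of 15 H2B, 8 of 12 H3 and 7 of 12 H4 genes were positive. The H1 count includes HIST1H1A, which was above 0 in shTBX3 replicate 1 alone (FPKM 0.16). Duplicated genes with identical values count separately here.

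**Figure D3:**
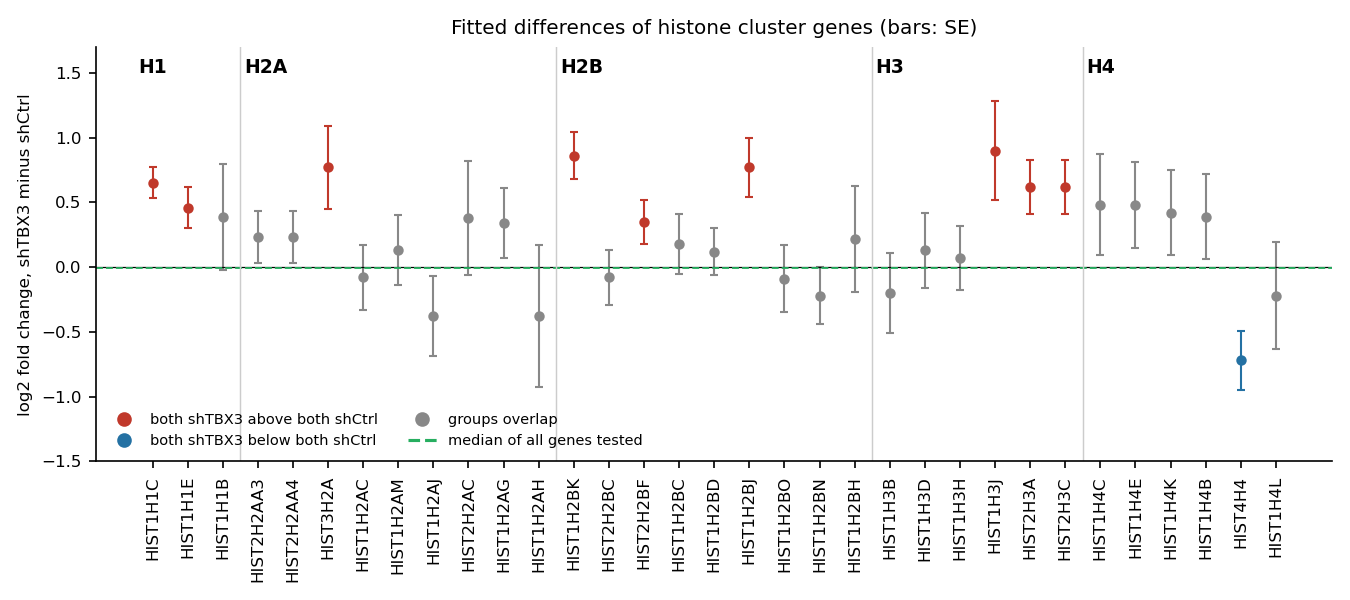
Log2 fold change, shTBX3 minus shCtrl, on the log2(FPKM + 1) scale, of the 33 genes tested; bars are SE, red and blue mark genes whose 2 shTBX3 values lie above or below both shCtrl values, and the dashed line is the median of all genes tested. In 9 genes the shTBX3 values are the higher without overlap and in HIST4H4 the lower, and 24 of 33 points lie above 0.

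Linker histones bind the DNA between nucleosomes, and 3 of the 5 genes were tested. HIST1H1C, which encodes H1.2 (gene 3006; chromosome 6, 26055968 to 26056698, minus strand, GRCh37, a single exon), stood at 15.45 and 16.03 in shCtrl against 25.54 and 24.87 in shTBX3. Its replicates were close and the groups far apart, with means of 15.7 ± 0.410 and 25.2 ± 0.474 (SD, n = 2 each), a ratio of 1.60. The log2 fold change was 0.65 ± 0.12 (SE), with an unadjusted p of 0.00187 and a limma adjusted p of 0.222. About 187 fragments over the shCtrl libraries and 298 over the shTBX3 libraries stood behind these values.

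HIST1H1E, which encodes H1.4 (gene 3008; chromosome 6, 26156557 to 26157343, plus strand, a single exon), stood at 6.63 and 5.84 in shCtrl against 9.90 and 8.06 in shTBX3. The groups did not overlap, with a ratio of 1.44 and a log2 fold change of 0.46 ± 0.16 (limma adjusted p = 0.650). HIST1H1B, which encodes H1.5, had values of 2.82 and 0.76 in shCtrl against 3.28 and 1.69 in shTBX3, so the replicates differed more than the groups. HIST1H1D (H1.3) and HIST1H1A (H1.1) were too low to test, at 1.41 or less in every library. The groups therefore separated in the 2 linker genes with the most fragments.

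Among H2B genes, HIST1H2BK led (gene 85236; chromosome 6, 27114140 to 27114634, minus strand, a single exon in GENCODE, with 2 RefSeq transcripts in the table). It stood at 20.84 and 15.98 in shCtrl against 37.78 and 30.72 in shTBX3. Both shTBX3 values were well above both shCtrl values, with means of 18.4 ± 3.44 and 34.2 ± 4.99 (SD, n = 2 each), a ratio of 1.86. The log2 fold change was 0.86 ± 0.18 (SE), with an unadjusted p of 0.00282 and a limma adjusted p of 0.256.

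HIST1H2BJ, the H2B gene in the same short stretch (gene 8970; chromosome 6, 27093676 to 27100574, minus strand), had FPKM values of 0.85 and 1.63 in shCtrl against 3.05 and 2.49 in shTBX3. The ratio was 2.23 and the log2 fold change 0.77 ± 0.23 (limma adjusted p = 0.550), on about 9.42 fragments in shCtrl and 20.9 in shTBX3. HIST2H2BF (gene 440689; chromosome 1, 149754245 to 149783928, minus strand) was at 2.74 and 2.29 against 3.37 and 3.60, a ratio of 1.39 (limma adjusted p = 0.812). These were the 3 tested H2B genes whose groups did not overlap.

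The other tested H2B genes overlapped between groups. HIST1H2BC stood at 2.74 and 2.0 against 3.47 and 2.24, and HIST1H2BD at 2.10 and 2.38 against 2.27 and 2.79. HIST1H2BN (1.83 and 1.13 against 1.17 and 1.06) and HIST1H2BO (1.52 and 1.64 against 0.95 and 2.03) had negative log2 fold changes of −0.22 and −0.09. HIST1H2BH ranged from 0.58 to 2.44, with both of these extremes in the shTBX3 libraries. HIST2H2BC, annotated as a pseudogene, was the H2B entry with the next level after HIST1H2BK, at 4.50 and 6.98 against 5.17 and 5.41. Its level is read per length like the others, and whether its fragments came from coding H2B genes was not tested.

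Among H2A genes the duplicated pair HIST2H2AA3 and HIST2H2AA4 had the highest level, each listed at 4.94 and 7.34 in shCtrl against 7.84 and 6.75 in shTBX3. The groups overlapped, with a log2 fold change of 0.23 ± 0.20. HIST3H2A, in the small cluster on the long arm of chromosome 1 (gene 92815; 228622478 to 228645574, minus strand), had FPKM values of 0.95 and 2.77 in shCtrl against 3.89 and 3.35 in shTBX3. It was the 1 tested H2A gene without overlap, with a ratio of 1.95 and a log2 fold change of 0.77 ± 0.32 (limma adjusted p = 0.759), but its shCtrl values differed from each other by more than the gap between the groups. About 3.85 and 11.2 fragments stood behind these.

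HIST1H2AJ (3.23 and 1.26 against 1.47 and 1.28) and HIST1H2AH (2.13 and 0.26 against 1.32 and 0) had the most negative log2 fold changes among H2A genes, −0.38 each. In both, the groups overlapped and a single shCtrl value, that of replicate 1, was the highest. HIST1H2AC stood at 1.85 and 3.38 against 2.08 and 2.62. HIST2H2AC ranged from 0.41 to 2.70, with both extremes in the shCtrl libraries. HIST1H2AG (1.79 and 1.00 against 2.55 and 1.51) and HIST1H2AM (2.24 and 1.53 against 2.87 and 1.52) had positive log2 fold changes of 0.34 and 0.13. In these last 2 genes replicate 1 was the higher in each group.

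H3 genes were all low, with no mean FPKM above 1.81. The HIST1H3 genes, which encode H3.1, summed to 9.16 and 5.28 in shCtrl against 8.76 and 7.48 in shTBX3 over 8 genes, and the groups overlapped. The HIST2H3 genes, which encode H3.2, summed to 1.31 and 1.25 against 3.05 and 2.51 over 3 genes, without overlap. That sum rests on HIST2H3A and HIST2H3C, each listed at 0.41 and 0.45 in shCtrl against 1.33 and 1.08 in shTBX3, a ratio of 2.80. With a log2 fold change of 0.62 ± 0.21 (limma adjusted p = 0.629) the pair counted as 2 of the 6 higher genes at an unadjusted p under 0.05, although their values are identical in the table. Both met the filter through the shTBX3 libraries alone, so this difference carries no weight. About 3.57 fragments in shCtrl and 9.98 in shTBX3 stood behind HIST2H3C.

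HIST1H3J had the largest fitted difference of the 33, a log2 fold change of 0.90 ± 0.38 (limma adjusted p = 0.761). Its values were 1.07 and 0 in shCtrl against 1.33 and 2.10 in shTBX3, about 4.35 against 13.9 fragments, so the size of this difference is poorly known. HIST1H3B (2.71 and 1.32 against 1.08 and 2.13), HIST1H3D (1.87 and 1.04 against 2.29 and 1.12) and HIST1H3H (1.62 and 1.05 against 1.89 and 1.06) overlapped. HIST3H3, which encodes a testis H3, reached 0.52 at most.

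H4 proteins are the same whichever gene encodes them, and the H4 genes were low as well. HIST1H4C, the highest, stood at 2.0 and 0.98 in shCtrl against 1.33 and 3.94 in shTBX3, a log2 fold change of 0.48 ± 0.39. HIST1H4E (0.69 and 1.69 against 2.76 and 1.36), HIST1H4K (0.37 and 1.45 against 1.11 and 1.83) and HIST1H4B (0.37 and 1.08 against 1.84 and 0.72) also had positive log2 fold changes, of 0.48, 0.42 and 0.39, with groups that overlapped. HIST1H4L was at 1.08 and 0.35 against 1.08 and 0.

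HIST4H4, the isolated gene on chromosome 12 (gene 121504; 14920933 to 14924065, minus strand), went the other way. It stood at 1.57 and 1.23 in shCtrl against 0.31 and 0.62 in shTBX3, so both shTBX3 values were below both shCtrl values. Its ratio was 0.332 and its log2 fold change −0.72 ± 0.23 (unadjusted p = 0.0192, limma adjusted p = 0.581). The fragments behind it were about 5.04 and 3.96 in shCtrl against 0.993 and 1.99 in shTBX3, and it passed the filter through shCtrl alone. A difference of this kind rests on very few fragments.

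The 42 of 44 HIST1 genes with an annotated position on chromosome 6 fall into 3 stretches with gaps of over 500 kb. HIST1H2BF and HIST1H4B had no such position and are left out of the counts and sums of the stretches. In the first (26017260 to 26285866, 22 genes) the sums were 40.7 and 39.6 in shCtrl against 60 and 54.8 in shTBX3. In the middle stretch (27093676 to 27115341, 5 genes, with HIST1H2BK) they were 25.6 and 19.6 against 45.1 and 35.4. In the last (27775257 to 27861669, 15 genes) they were 20.1 and 13.1 against 18.5 and 15.6, so the groups overlapped there and not in the other two. Without HIST1H2BK the middle stretch overlapped as well, at 4.77 and 3.58 against 7.27 and 4.70. Groups were apart and higher in 5, 2 and 1 genes of the 3 stretches, and apart and lower in 1 gene, HIST1H2AL of the last stretch, beside 13.7% and 17.0% of all genes in the table. Of these genes HIST1H2AL and 3 of the first stretch (HIST1H2AD, HIST1H2BE and HIST1H4D) were too low to test, with fewer than 10 fragments in every library. In the HIST2 cluster on chromosome 1 the sums were 21.21 and 31.12 against 32.32 and 29.60 and overlapped, and the 3 genes of the HIST3 cluster summed to 1.22 and 2.77 against 4.24 and 4.17.

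**Figure D4:**
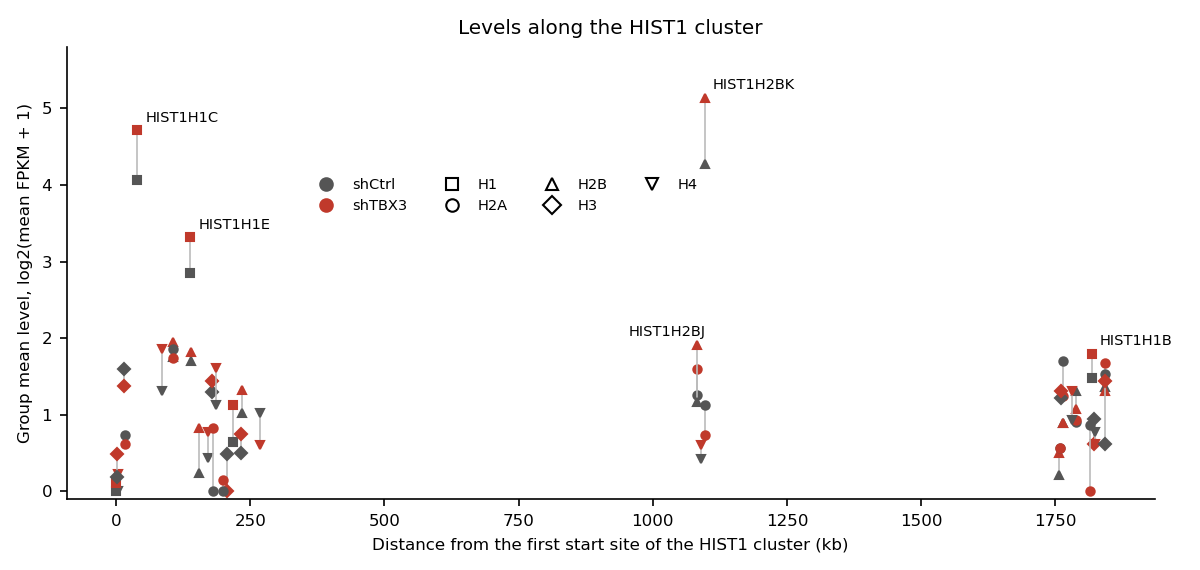
Group mean level, as log2(mean FPKM + 1), of 42 HIST1 genes with an annotated position against distance in kb from the first start site of the cluster; grey is shCtrl, red shTBX3, symbols give the histone type and lines join the groups of a gene. HIST1H1C and HIST1H1E lie in the first stretch, HIST1H2BK and HIST1H2BJ in the middle one, and in the last HIST1H1B has the highest shTBX3 mean (2.48) and HIST1H2AJ the highest shCtrl mean (2.25).

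Many H2A and H2B genes lie head to head, with starts under 1 kb apart on opposite strands. There were 9 such H2A and H2B pairs among the 56 genes with an annotated position, 169 to 250 bases apart. HIST1H2BF, whose promoter window overlaps that of HIST1H2AD on the opposite strand, had no such position and was not counted. HIST1H2BK had means of 18.4 and 34.2, while its partner HIST1H2AH, 250 bases away, had 1.19 and 0.660. HIST1H2BJ had 1.24 and 2.77 and its partner HIST1H2AG 1.40 and 2.03, with overlap. HIST3H2A and HIST3H2BB were the 1 pair with both groups apart and higher, but HIST3H2BB was listed at 0 in both shCtrl libraries and at 0.35 and 0.30 in shTBX3, about 1 fragment each. HIST2H2BE and HIST2H2AC stood at 0.730 and 0.590 and at 1.56 and 1.98. The groups of HIST2H2BE were apart and lower, at 0.73 and 0.73 in shCtrl against 0.48 and 0.70 in shTBX3, but too low to test. Those of HIST2H2AC overlapped.

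Histone variants from outside the clusters had a far higher summed level. They are listed as replication-independent, but H2AFX also holds the stem-loop by the search used above. The summed FPKM of the 60 cluster genes was 9.15% and 9.51% of the sum over 15 variant genes with the control hairpin and 13.9% and 12% with the TBX3 hairpin, while the variants themselves summed to 1218 and 1140 against 1170 and 1178. Of 10 variants tested, 5 were higher and 5 lower with a median log2 fold change of −0.01. Limma called 0 of the 10, and 1 was higher at an unadjusted p under 0.05, against 2.03% of all genes tested. H2AFZ stood at 334.24 and 302.21 against 320.36 and 289.81. H2AFY2, which encodes macroH2A2, was at 8.81 and 8.36 against 10.53 and 12.17 (limma adjusted p = 0.718). H2AFY, which encodes macroH2A1, was at 262.11 and 237.56 against 263.99 and 262.29. CENPA, the centromeric H3, was at 28.32 and 20.15 against 20.10 and 19.01. H1F0, the linker histone of resting cells, differed between replicates rather than groups, at 38.62 and 80.69 in shCtrl against 48.25 and 99.77 in shTBX3.

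Genes that make and handle histone mRNA and protein had small median differences. Of 25 factors for transcription and 3′ processing of histone mRNA, 15 were higher and 10 lower (median log2 fold change 0.05). Both shTBX3 values lay above both shCtrl values in 7 (28%, against 14.8% of all genes tested) and below in 4 (16%, against 19.7%). Limma called 0 of these factors, and 1 gene was lower at an unadjusted p under 0.05, against 4.65% of all genes tested. That gene was CPSF2, a subunit of the cleavage complex, at 19.94 and 19.47 against 16.03 and 13.70 (log2 fold change −0.39 ± 0.14, limma adjusted p = 0.658). Cyclin E1 (CCNE1) was at 18.87 and 16.74 against 14.70 and 13.39 (limma adjusted p = 0.773). ERI1, an exonuclease that binds the stem-loop, was at 11.58 and 9.98 against 15.03 and 12.25 (limma adjusted p = 0.837). Of 26 histone chaperones, 17 were higher and 9 lower (median 0.11), with 0 called and 0 at an unadjusted p under 0.05. Groups were apart and higher in 7 chaperones (26.9%) and apart and lower in 5 (19.2%). Their leading members were ASF1A, an H3 and H4 chaperone (11.30 and 11.87 against 8.70 and 9.79), the nucleolar protein NCL (229.38 and 212.36 against 301.01 and 244.48) and CHAF1B, of chromatin assembly factor 1 (37.78 and 36.82 against 46.32 and 42.61).

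S-phase genes were measured beside the histones because histone mRNA is made in S phase. Of 38 replication genes, 29 were higher and 9 lower (median 0.11, log2 scale). Both shTBX3 values lay above both shCtrl values in 11 (28.9%, against 14.8% of all genes tested) and below in 0 (against 19.7%). Limma called 0 of the 38, and 2 were higher at an unadjusted p under 0.05, against 2.03% of all genes tested. CDC45, of the replicative helicase, stood at 16.01 and 15.73 against 23.98 and 20.71 (limma adjusted p = 0.527). RFC2, of the clamp loader, was at 34.06 and 35.83 against 49.03 and 44.13 (limma adjusted p = 0.576), and CDC6, which licenses origins, at 21.50 and 20.53 against 34.21 and 23.72 (limma adjusted p = 0.792). Their summed FPKM was 2015 and 1740 in shCtrl against 2187 and 1867 in shTBX3, with overlap and with replicate 1 the higher in each group. Their part in the histone values was not tested.

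**Figure D5:**
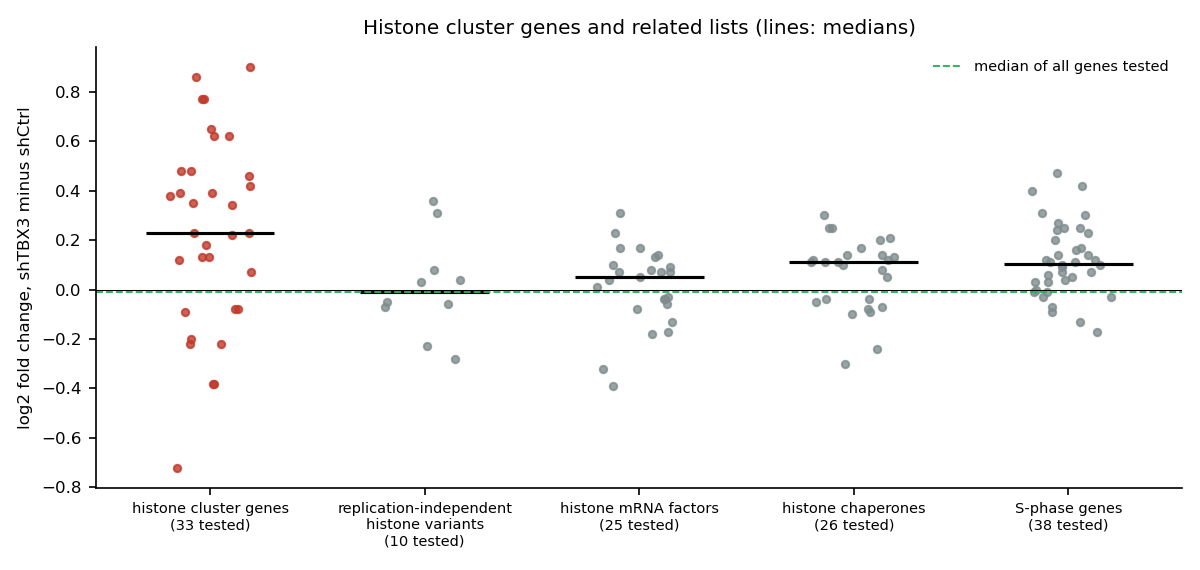
Log2 fold change, shTBX3 minus shCtrl, of the 33 histone cluster genes tested (red) and of 4 related lists (grey); points are genes, black lines are medians and the dashed line is the median of all genes tested. The histone cluster genes have a median of 0.23 and the histone variants from outside the clusters have a median of −0.01. The medians are 0.05 for histone mRNA factors, 0.11 for histone chaperones and 0.11 for S-phase genes.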

How the data were processed

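Per the labels, 4 K1 libraries were read on a BGISEQ-500. The authors deposited 1 FPKM value per gene and library. Bowtie2, HISAT and RSEM, and the build hg19 (GRCh37), are listed without versions or roles, per the submitters' processing notes. The sources used here give neither strandedness nor poly(A) selection, so fragments of overlapping antisense genes cannot be told apart (23 of 60 histone cluster genes overlap another annotated gene).

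The 13924 genes that reached an FPKM of 1 in 2 or more libraries were fitted with limma 3.58.1 (R 4.3.3) as log2(FPKM + 1) (intensity trend, two-sided, Benjamini-Hochberg over all genes, threshold 0.05), and the fit was tested on simulated data. Fold changes on this scale understate low genes, and ratios are of mean FPKM. Fragments were estimated from whole steps of microRNA FPKM (79.3% to 82.1% of values within 0.05 of a whole number), an offset of 36 or 37 bases and RefSeq mRNA lengths, and cover counting error only. All 60 genes were matched to RefSeq by gene ID. Positions and stem-loops came from GENCODE release 44 on GRCh37. Python 3.11.15 was used.

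The named genes were TBX3, every histone cluster gene tested, and for each related list up to 3 genes with the smallest p whose groups did not overlap. Other genes were named after their values were seen. Alternatives were other pseudocounts, filters, scalings and limma settings, a replicate block, and each library left out. Members, lists and rules were chosen with earlier results of these data known. Some marker genes of these lists are not reported here.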

Additional observations from a re-analysis of the deposited data

How the results depend on the processing

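No alternative called a histone cluster gene, except that with the replicate number as a block 1 was called (HIST1H2BK, adjusted p = 0.0330). The block gave 132 calls over all genes; no label ties same-numbered libraries together, so this pairing rests on a number alone (deviations of same-numbered libraries correlated at 0.260 over genes). Calls over all genes were 25 as reported, 7 with a pseudocount of 0.1, 0 without a filter (1249 at an unadjusted p under 0.05), and 12 (without shTBX3 replicate 1) to 55 (without shCtrl replicate 1) as libraries were left out. The median of the histone cluster genes ran from 0.14 to 0.35 over the alternatives. The H2B ratio was 1.21 without HIST1H2BK. Of the 30 genes that did not pass the filter through 1 group alone, 12 kept their sign under every alternative in which they were tested, among them HIST1H1C (0.62 to 0.68), HIST1H2BK (0.68 to 1.05), HIST1H1E, HIST1H2BJ and HIST3H2A. For HIST4H4, HIST2H3A and HIST2H3C the filter fixed the sign. The others changed sign as single libraries were left out, with ranges of −0.17 to 0.95 (HIST1H1B), −0.39 to 0.23 (HIST1H2AC), −1.04 to 0.22 (HIST1H2AH), −0.83 to 0.07 (HIST1H2AJ), −0.18 to 0.43 (HIST1H2AM), −0.05 to 0.42 (HIST1H2BC), −0.09 to 0.78 (HIST1H2BH), −0.40 to 0.23 (HIST1H2BO), −0.54 to 0.14 (HIST1H3B), −0.19 to 0.44 (HIST1H3D), −0.17 to 0.32 (HIST1H3H), −0.06 to 1.02 (HIST1H4C), 0.00 to 0.83 (HIST1H4K), −0.53 to 0.31 (HIST1H4L), −0.01 to 0.48 (HIST2H2AA3 and HIST2H2AA4), −0.32 to 1.07 (HIST2H2AC) and −0.34 to 0.19 (HIST2H2BC). The cause was not tested. Of the 28 tested genes with a single mRNA length, 14 rested on fewer than 10 fragments in every library, which limits the precision of their values.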
